A study of Mus musculus with 8 samples.

Results

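The aldehyde, flavin and carboxylester enzymes of the mouse main olfactory epithelium were taken as the 47 genes, of 21765 in the deposited table, whose symbols follow the Aldh, Fmo, Ces or Ephx nomenclature. They comprise 20 aldehyde dehydrogenases (Aldh), 16 carboxylesterases (Ces), 7 flavin-containing monooxygenases (Fmo) and 4 epoxide hydrolases (Ephx). The symbols alone chose them, and no measured value entered the choice. Aldh2, whose symbol lacks the subfamily letter, falls outside the rule and is given with the other aldehyde genes.

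RNA bound to polysomes was sequenced in 8 libraries, 2 for each of WT early, WT late, cKO early and cKO late. WT mice were Mex3a flox/flox or flox/+ without Cre, and cKO (conditional knockout) mice were Mex3a flox/flox with Cre. The Cre line is not reported here, the labels used here give no age, and nothing in them says whether animals were pooled. Cycloheximide, which halts ribosomes on mRNA, was applied at 100 µg/mL to all tissue at dissection, and lysates were separated on sucrose gradients into about 42 fractions of 350 µL. Early polysomes are 50 µL portions pooled from fractions 27 to 34, and late polysomes those from the denser fractions 35 to 42. Early and late libraries with the same genotype and number carry the same lysate name. Nothing says that the lysates came from separate animals, so p-values measure the spread between these samples, which may be technical.

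The genotype tag of the library titled WT early replicate 2 is that of cKO mice, and the title was followed. Mex3a, an RNA-binding protein gene and the target of the knockout, was at 97.4 and 116 transcripts per 1000000 (TPM) in WT early replicates 1 and 2. WT late libraries had 93.2 and 95.6 TPM. The cKO libraries had 13.9 and 19.8 TPM (early) and 11.1 and 13.8 TPM (late). The library with the conflicting tag thus had the highest Mex3a level of the 8. Reads inferred from the TPM steps summed to 7776792 to 12771079 per library, fewest in cKO late replicate 2, and log2 levels of replicates correlated across all tested genes at r = 0.978 to 0.985.

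As background, the nasal lining meets inhaled chemicals directly, and its sustentacular (supporting) cells and Bowman glands are rich in enzymes that modify foreign compounds. Aldehyde dehydrogenases oxidise aldehydes to acids, among them retinaldehyde to retinoic acid. Flavin-containing monooxygenases add oxygen to nitrogen and sulfur atoms, carboxylesterases split esters, and epoxide hydrolases open epoxides with water. On a sucrose gradient an mRNA moves further down the more ribosomes it carries, so a long coding sequence with many ribosomes is recovered from denser fractions.

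The bases around the start codon are shown for members on which the results turn, because ribosomes enter the coding sequence there. Each line runs 5′ to 3′ on the mRNA strand, from GENCODE M21 transcripts on GRCm38 (mm10), with 12 bases before and 9 bases after the start codon, which is in capitals.
Aldh1a7: gccaaaccagcaATGtcttcacct
Aldh1a1: gccaaaccagcaATGtcttcgcct
Ces1d: tgtccttccacaATGggcctctac
Ces1a: tggccttccagcATGtggctcttt
Ephx1: cctgacagagtcATGtggctggaa
Fmo2: ataaaggagacaATGgcaaagaag
Ephx4: ccgcaggcgcccATGgccccgccg
Start contexts were listed for 32 of the 33 tested members, with Aldh7a1 left out. Of these, 28 of 32 (87.5%) had A or G at position -3, against 85.6% of 14268 tested genes. G directly after the start codon was present in 13 of them (40.6%, against 52.3% of genes). An ATG upstream of the start codon was present in 10 (31.2%, against 55.4%). Aldh1a1 and Aldh1a7 shared all 12 bases before the start codon. These are descriptions of 1 transcript per gene.

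Aldh1a1 and Aldh1a7 are close copies, and their first 90 coding bases are shown, with the 5 bases that differ in capitals, because reads from them can be hard to assign.
Aldh1a1: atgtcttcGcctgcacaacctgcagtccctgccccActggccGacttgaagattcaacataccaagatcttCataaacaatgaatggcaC
Aldh1a7: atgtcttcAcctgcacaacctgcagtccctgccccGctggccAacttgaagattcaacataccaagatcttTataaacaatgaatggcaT
The full coding sequences were 91.6% identical, and 10.4% of 50-base windows of either were shared with the other. Aldh3b2 and Aldh3b3 were 90.5% identical and shared 35.3% of such windows. How reads matching both copies were counted is not given in the sources used here, so the values of these 4 genes are uncertain where they share sequence.

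Of the 47 members, 4 were listed at 0 in all libraries (Ces1c, Ces2c, Ces3b and Ces4a), and 3 were above 0 in 1 library only (Aldh8a1, Ces2h and Fmo9). A mean deposited TPM of at least 1 was required for testing, which 33 members met: 19 Aldh, 6 Ces, 5 Fmo and 3 Ephx. The 14 others reached at most 1.09 TPM in any library. The carboxylesterases were the most uneven family, with 10 of 16 not tested beside the member with the highest mean level of all, Ces1d. By mean scaled TPM, a unit that corrects for transcript length, Ces1d (344) and Ephx1 (332) led, followed by Aldh1a1 (169), Aldh1a2 (118), Fmo6 (115) and Ces1a (104). The ranges of neighbours in that order over the 8 libraries overlapped, as the plot of levels shows. The 5 highest members gave 48% to 58.8% of the summed scaled TPM of all members.

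**Figure D1:**
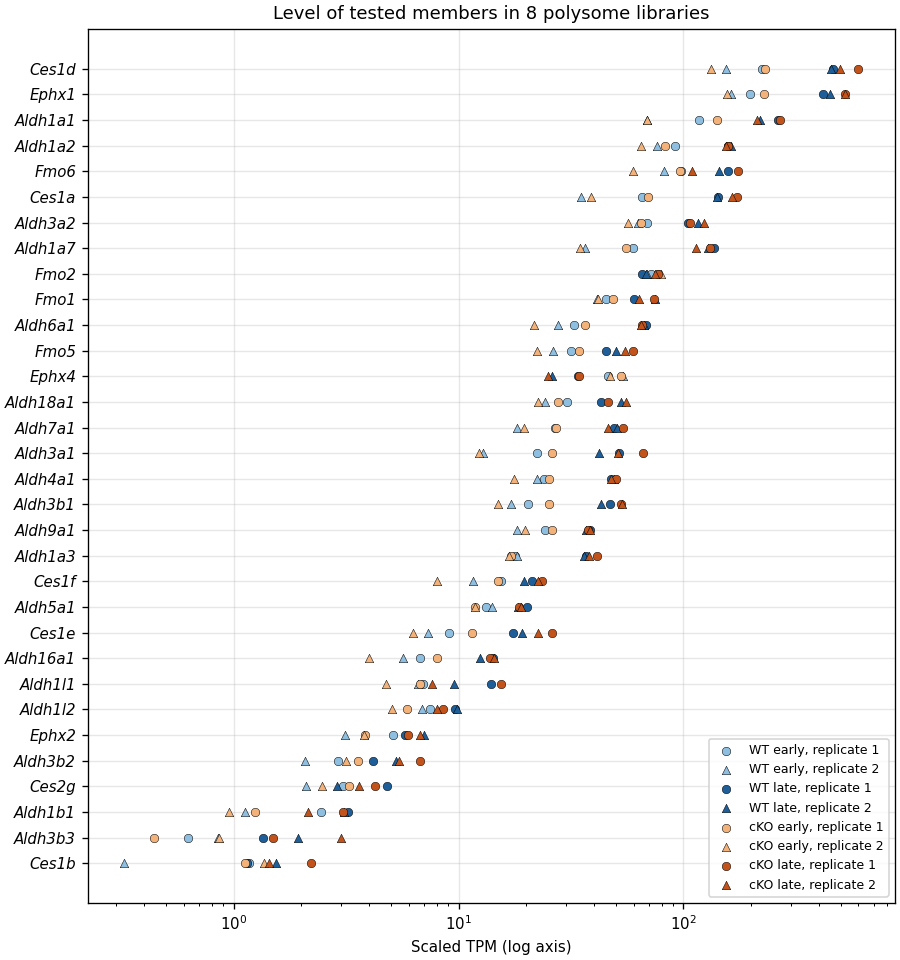
Scaled TPM (horizontal log axis) of 32 tested members in each of the 8 libraries. Blue marks WT, orange cKO, pale early and dark late polysomes, and circles and triangles mark replicates 1 and 2. Dark symbols lie to the right of pale ones for most members, Ephx4 shows the opposite order, and the symbols of Fmo2 lie together.

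The first comparison asks how the mRNAs of these enzymes were distributed between early and late polysomes. On the average of both genotypes, 28 of 33 tested members (84.8%) were higher in late polysomes, where 34.3% of the 16097 genes tested were. One, Ephx4, was lower, where 34.6% of all genes were. The other 4, among them Ces1b, Ces2g and Fmo2, did not pass the test (limma on log2(scaled TPM + 1), two-sided, adjusted by Benjamini-Hochberg over all genes, threshold 0.05). The median late-minus-early difference was 0.82 on the log2 scale (1.77-fold) over the members and -0.011 over all genes. Rises of more than 1 on the log2 scale were called for 13 members, and for 4.35% of all genes. In 27 members all 4 late libraries lay above all 4 early ones, as in 31.5% of all genes, and in 1 member they lay below, as in 30.9%. With no filter on low values, 29 of 43 members above 0 were higher and 1 lower, against 26% of all genes called higher.

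Within genotypes, 22 members were higher and 1 lower in late polysomes of WT, against 27.1% and 27.7% of all genes. In cKO, 28 were higher and 1 lower, against 28.9% and 29.2% of all genes. The calls coincided for 23 members. Without the WT early library that carries the conflicting tag, the average gave the same counts, 28 higher and 1 lower, with a median of 0.81. The WT comparison then called 16 members higher and 0 lower, and the cKO comparison 27 higher and 1 lower.

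The aldehyde dehydrogenases that act on retinaldehyde come first. Aldh1a1 (chr19:20492715-20643465, plus strand) was at 116 and 66.7 TPM in early and 276 and 232 TPM in late polysomes of WT, and at 134 and 64 (early) and 270 and 222 TPM (late) in cKO. Every late library was above every early one, and replicate 2 was the lower in both early groups. The difference was 1.34 on the log2 scale (SE 0.24, limma adjusted p = 0.00119), or 2.53-fold. Aldh1a2, which makes retinoic acid in many developing tissues, was at 90.6 and 74.5 TPM in WT early and 164 and 172 in WT late. In cKO it was at 78.7 and 60.5 TPM early and 159 and 162 late, again without overlap of the fractions. Its difference was 1.00 (SE 0.09, limma adjusted p = 4.33e-05). Aldh1a3, the remaining retinaldehyde dehydrogenase of the subfamily, rose by 1.08 (SE 0.07) and had closely matching replicates, 15.7 to 17.7 TPM in the 4 early libraries and 38.3 to 41.5 in the 4 late ones.

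Aldh1a7 (chr19:20692953-20727562, minus strand), the rodent copy of Aldh1a1 that serves as a sustentacular marker, was at 58.6 and 35.5 TPM in WT early and 144 and 135 in WT late. In cKO it was at 52.8 and 32.2 TPM early and 132 and 119 late. The late libraries were all above the early ones, and as in Aldh1a1 the second early replicate was the lower in both genotypes. The difference was 1.47 (SE 0.18, limma adjusted p = 0.000141), or 2.78-fold.

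Aldh3a1, a cytosolic enzyme abundant in the cornea that oxidises aldehydes from lipid peroxidation, had the largest difference in its family. It was at 22 and 12.4 TPM in early and 54.4 and 45 TPM in late polysomes of WT, and at 24.7 and 11.5 (early) and 66.4 and 53.5 TPM (late) in cKO. The fractions did not overlap, and the difference was 1.53 (SE 0.24, limma adjusted p = 0.000587). Its neighbour on chromosome 11, Aldh3a2, encodes the fatty aldehyde dehydrogenase of the endoplasmic reticulum. It was at 67.8 and 61.3 TPM in early and 110 and 123 TPM in late polysomes of WT, and at 61.8 and 52.9 (early) and 108 and 128 TPM (late) in cKO, which is 0.82 higher in late polysomes (SE 0.08, limma adjusted p = 5.1e-05). Of the 3b subfamily, Aldh3b1 rose by 1.31 (SE 0.15), Aldh3b3 by 0.77 (SE 0.23) and Aldh3b2 by 0.70 (SE 0.15). The reads inferred for Aldh3b3 ranged from 4 to 18 per library, so its value is imprecise.

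All 19 tested aldehyde dehydrogenases passed the test upwards, with a median of 1.00. Over all genes 34.3% did, and 47.4% of those with 450 to 650 codons. Among those of amino acid breakdown, Aldh6a1 (valine) rose by 1.17 (SE 0.15), Aldh4a1 (proline) by 1.10 (SE 0.11) and Aldh7a1 (lysine) by 1.10 (SE 0.14). Aldh18a1, which instead makes a precursor of proline, rose by 0.89 (SE 0.12). Aldh5a1, which oxidises succinic semialdehyde from GABA, rose by 0.55 (SE 0.08). The smallest rise was that of Aldh1l2, the mitochondrial 10-formyltetrahydrofolate dehydrogenase. It was at 7.39 and 6.7 TPM in early and 10.1 and 10.4 TPM in late polysomes of WT, and at 5.61 and 4.72 (early) and 8.6 and 8.36 TPM (late) in cKO. Late libraries were above early ones without overlap, by 0.45 (SE 0.10, limma adjusted p = 0.00442). Its cytosolic counterpart Aldh1l1 rose by 0.76 (SE 0.22), a call that was lost without WT late replicate 1 (0.63, limma adjusted p = 0.0543) or cKO early replicate 2 (0.65, limma adjusted p = 0.0513). That of Aldh3b3 was lost without WT late replicate 2 (0.69, limma adjusted p = 0.0521).

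Exons of Aldh4a1 share 32.5% of their bases with Gm21969 on the same strand. Aldh6a1 shares 18.6% with Bbof1, Ces1a 18.1% with Gm45463, Aldh1l2 14.1% with D10Wsu102e and Aldh5a1 14.1% with an antisense gene, each on the opposite strand. The kit keeps strand, but whether counting used it is not given in the sources used here.

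Among the carboxylesterases, which hydrolyse esters and amides in the endoplasmic reticulum, Ces1d and Ces1a carried the largest values. Ces1d (chr8:93166068-93197838, minus strand), a triacylglycerol hydrolase, was at 221 and 150 TPM in WT early and 485 and 482 in WT late. In cKO it was at 219 and 123 TPM early and 605 and 521 late. No early library reached the lowest late one, and the difference was 1.47 (SE 0.18, limma adjusted p = 0.000158). Ces1d alone made up 69% to 72.9% of the summed scaled TPM of the family in every library. Ces1a (chr8:93020214-93048192, minus strand) was at 64.4 and 34.2 TPM in early and 149 and 149 TPM in late polysomes of WT, and at 66.5 and 36.2 (early) and 174 and 173 TPM (late) in cKO. It had the largest difference of all members, 1.61 (SE 0.22, limma adjusted p = 0.000239), or 3.05-fold. Its late replicates matched closely, and its early replicates lay further apart.

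Ces1e rose by 1.24 (SE 0.17) and Ces1f by 0.78 (SE 0.18). The values were 0.39 (SE 0.23, limma adjusted p = 0.154) for Ces1b, with 3 to 16 inferred reads per library, and 0.39 (SE 0.19, limma adjusted p = 0.0964) for Ces2g. With lysate as a block, Ces2g passed the test (limma adjusted p = 0.0492). Thus 4 of the 6 tested carboxylesterases were called higher, against 34.3% of all genes.

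The epoxide hydrolases moved in both directions. Ephx1 (chr1:180976210-181020904, minus strand), the microsomal enzyme that detoxifies epoxides of foreign compounds, was at 195 and 158 TPM in WT early and 437 and 478 in WT late. In cKO it was at 217 and 145 TPM early and 528 and 547 late. Every late library was above every early one, by 1.37 (SE 0.12, limma adjusted p = 3.72e-05), or 2.58-fold. Ephx2, the soluble enzyme of fatty acid epoxides, rose by 0.58 (SE 0.15). Ephx4 (chr5:107402736-107430035, plus strand), a family member predicted from sequence, was at 45.7 and 52.6 TPM in early and 35.5 and 27.5 TPM in late polysomes of WT, and at 50.5 and 43.7 (early) and 34.7 and 26.2 TPM (late) in cKO. Its late libraries all lay below its early ones, by -0.74 (SE 0.13, limma adjusted p = 0.000941). Ephx1 gave 73.9% to 80% of the family's summed scaled TPM in early libraries and 91.3% to 94.3% in late ones.

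The flavin-containing monooxygenases, membrane enzymes of the endoplasmic reticulum, differed among themselves. Fmo6 was at 95.8 and 79.5 TPM in early and 166 and 153 TPM in late polysomes of WT, and at 91.9 and 55.8 (early) and 176 and 114 TPM (late) in cKO. The fractions did not overlap, and the rise was 0.80 (SE 0.18, limma adjusted p = 0.00434). Fmo1, at 44.8 and 40.1 TPM in early and 63.1 and 79.5 TPM in late polysomes of WT, and at 46.5 and 38.9 (early) and 74.4 and 66.3 TPM (late) in cKO, rose by 0.61 (SE 0.10, limma adjusted p = 0.000699). Fmo5 rose by 0.87 (SE 0.13).

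Fmo2 (chr1:162874317-162898726, minus strand), known as the main form in the lung of many mammals, was nearly level across libraries. It was at 70.4 and 66.9 TPM in early and 68.4 and 72 TPM in late polysomes of WT, and at 73.3 and 73.6 (early) and 77.8 and 78.4 TPM (late) in cKO. Early and late libraries overlapped, and the difference was -0.06 (SE 0.06, limma adjusted p = 0.428), which became 0.06 with TPM left as deposited. Fmo2 had the smallest difference in size of the 33 members.

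**Figure D2:**
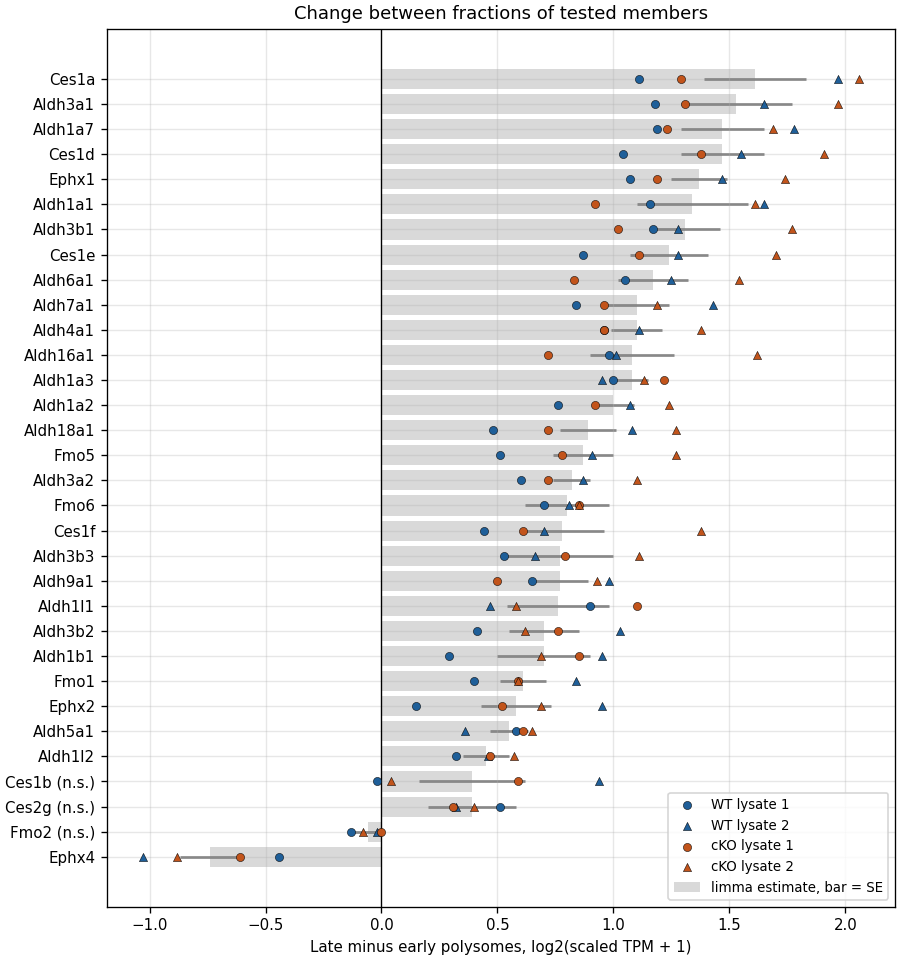
Late minus early polysomes (horizontal axis, log2(scaled TPM + 1)) for 32 tested members. Grey bars give the limma estimate over both genotypes with its SE, symbols give single lysates (WT blue, cKO orange, lysate 1 circles, lysate 2 triangles), and n.s. marks 3 members that did not pass the test. Values run from -0.74 for Ephx4 to 1.61 for Ces1a.

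By the place in the cell that textbooks give, an assignment made for 25 members after their values were seen, all 7 cytosolic enzymes rose (median 1.08). All 6 mitochondrial ones rose (median 0.79), as did 8 of 12 in the endoplasmic reticulum (median 0.80). The 4 that did not pass the test, among them Ces1b, Ces2g and Fmo2, were all in the last group. That group is incomplete, since not every tested member placed in the endoplasmic reticulum above is in it. Ces1b had 3 to 16 and Ces2g 28 to 61 inferred reads per library, but Fmo2 had 705 to 1163. A part of place in these outcomes was not tested. Ephx4, the only member called lower, was not among the 25. Over all genes 34.3% were called higher.

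Coding length moved with the difference between fractions over the whole table. Across 14672 tested genes with a coding length, Spearman's rho was 0.636, a description across genes, which are not independent replicates. Most members are of like size, and 28 of them had 450 to 650 codons. The 2889 genes of that range had a median difference of 0.25, and 47.4% were called higher. The members in the range had a median of 0.85, and 24 of 28 were called higher. Of these 28, 27 lay above the median of the range, 21 above its upper quartile (0.64) and 13 above its 90th percentile (0.92). Fmo2, with 535 codons, was the member below the median, and 31.6% of the genes in the range lay below it.

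Ephx4 was the shortest tested member, with 359 codons. Genes of 300 to 420 codons had a median difference of -0.14, and 8.58% of these 3322 genes lay below Ephx4. The 4 longest members, Aldh16a1, Aldh18a1, Aldh1l1 and Aldh1l2, had 795 to 923 codons, and genes of 790 to 930 codons had a median of 0.40. All 4 lay above that value, with Aldh1l2 (0.45) closest to it and Aldh16a1 (1.08) furthest.

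**Figure D3:**
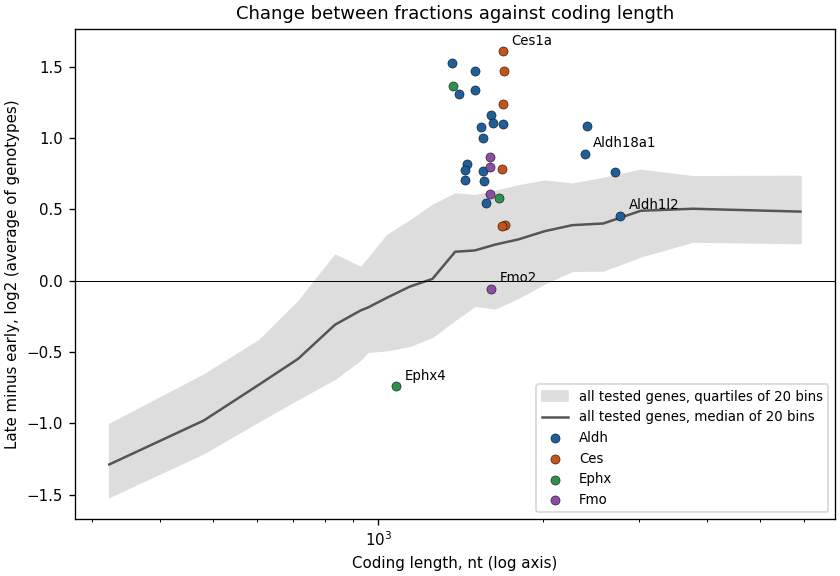
Late-minus-early difference (vertical axis, log2, average of genotypes) against coding length (horizontal log axis, nucleotides). The grey line and band give the median and quartiles of all tested genes in 20 bins of equal size, and points are 32 members coloured by family. Most members lie above the band at their length, Fmo2 lies below the line, and Ephx4 below the band.

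The size of the difference varied between lysates. The median over the 33 members was 0.65 in WT lysate 1, 0.98 in WT lysate 2, 0.79 in cKO lysate 1 and 1.13 in cKO lysate 2, while that over all genes rounded to 0.00 in each. The second lysate had the larger difference in both genotypes for 23 of 33 members (69.7%), against 34.1% of all genes. The early libraries set this apart: 27 members (81.8%) were lower in early replicate 2 than in early replicate 1 in both genotypes, against 34.7% of all genes. In late libraries 14 members (42.4%) were, against 33.8%. The summed scaled TPM of all members was 1395 and 1091 in WT early replicates 1 and 2, and 1472 and 1004 in cKO early. It was 2552 and 2524 in WT late, and 2927 and 2633 in cKO late.

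Of 12 cell type marker lists, 8 had a lower sum in early replicate 2 than in early replicate 1 in both genotypes, 3 a higher one, and 1, mature neurons, a higher one in WT and a lower one in cKO. The summed scaled TPM of 15 sustentacular markers, which include Aldh1a7, was 9412 and 8495 in WT early and 9921 and 8211 in cKO early. In late libraries it was instead higher in replicate 2, at 13942 and 14334 (WT) and 15711 and 15977 (cKO). Single sustentacular markers also went either way. Cyp2a5 was at 2051 and 1424 TPM in WT early and 1859 and 1005 in cKO early. Sox2 was at 86 and 93.4 (WT early) and 89.4 and 89.6 (cKO early), and Hes1 at 33.1 and 36.4, and 38.4 and 42.9. The summed scaled TPM of 13 Bowman gland and duct markers was 9930 and 7796 in WT early, and 9503 and 7986 in cKO early. In late libraries it was 9446 and 9053 (WT) and 11576 and 10875 (cKO). That of 6 endothelial and stromal markers was 13175 and 7930 in WT early, and 13299 and 8993 in cKO early. The collagen genes Col1a1 (8436 and 4996 TPM in WT early) and Col1a2 (4278 and 2496) made up nearly all of it. Pecam1 was at 22 and 21.4 TPM in WT early. In early libraries the opposite order was found for the sum of respiratory markers, at 6978 and 7941 (WT) and 9760 and 10134 (cKO). The same held for that of immune markers, at 406 and 475 (WT) and 531 and 590 (cKO). In late libraries the immune sum kept that order, at 304 and 362 (WT) and 395 and 402 (cKO). The respiratory sum did not, at 3518 and 3265 (WT) and 4619 and 3711 (cKO). Single genes of both lists went either way. In WT early, Scgb1c1 (5404 and 6145 TPM) made up most of the respiratory sum, but Ccdc39 was at 41.4 and 36. Among immune markers S100a9 was at 77.1 and 133 TPM in WT early, but Cd74 at 87.6 and 66.5. In early libraries immature neuron markers summed to 2345 and 2357 (WT) and 2157 and 2174 (cKO). Mature neuron markers summed there to 10388 and 12764 (WT) and 11560 and 11359 (cKO). No marker of these 7 lists was at 0 in all libraries, but Fezf2 (sustentacular) reached at most 0.181 TPM and Scgb1a1 (respiratory) at most 0.881. The parts of cell composition and of coding length in the lysate difference were not tested. Fewer cells of a type and less RNA per cell cannot be told apart in these tissue samples.

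The second comparison asks whether loss of Mex3a altered the levels of these mRNAs on polysomes. No tested member passed the threshold between cKO and WT in early polysomes, where 0.0435% of all genes did. None did in late polysomes (0.0124% of all genes) or in lysate means, each averaged over its 2 fractions (0.00621%). At an unadjusted limma p under 0.05 there were 1 member in early polysomes, 0 in late and 1 in lysate means, against 6.64%, 9.36% and 11.3% of all genes, and voom on the inferred reads called 0 members in each. The median cKO-minus-WT difference over the members was -0.06 in early polysomes, 0.05 in late polysomes and 0.03 in lysate means. Single libraries set the sign of the early median. It was 0.25 without cKO early replicate 2 and 0.13 without WT early replicate 1, but -0.30 without cKO early replicate 1 and -0.18 without WT early replicate 2. The lysate-mean median was -0.08 without cKO lysate 1 and -0.06 without WT lysate 2, but 0.17 without cKO lysate 2 and 0.09 without WT lysate 1. The late median was 0.05 to 0.16 with 1 library left out, above the value from all libraries without WT late replicate 1 (0.13), WT late replicate 2 (0.11) or cKO late replicate 2 (0.16). No member was called in any of these fits. Differences in lysate means of the 32 members shown ran from -0.29 (Aldh1b1) to 0.33 (Ces1b). The median SE over the members was 0.14. Differences well above that size could also go uncalled, with 2 lysates per genotype and adjustment over 16097 genes. The gland marker Bpifb5, for example, differed by 0.85 (SE 0.17) without passing the test (limma adjusted p = 0.319).

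The member with the smallest p in early polysomes was Aldh1l2, at 7.39 and 6.7 TPM in WT and 5.61 and 4.72 TPM in cKO. Both cKO libraries were below both WT libraries, by -0.34 (SE 0.15), with a limma adjusted p of 0.748. In lysate means Fmo2 had the smallest p, with a difference of 0.17 (SE 0.06, limma adjusted p = 0.411). The lysate means of cKO and WT did not overlap for 7 of 33 members, against 43.6% of all genes. For Aldh1a7, Ces1d and Ephx1 the lysate-mean differences were -0.10 (SE 0.18), 0.08 (SE 0.19) and 0.17 (SE 0.11).

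**Figure D4:**
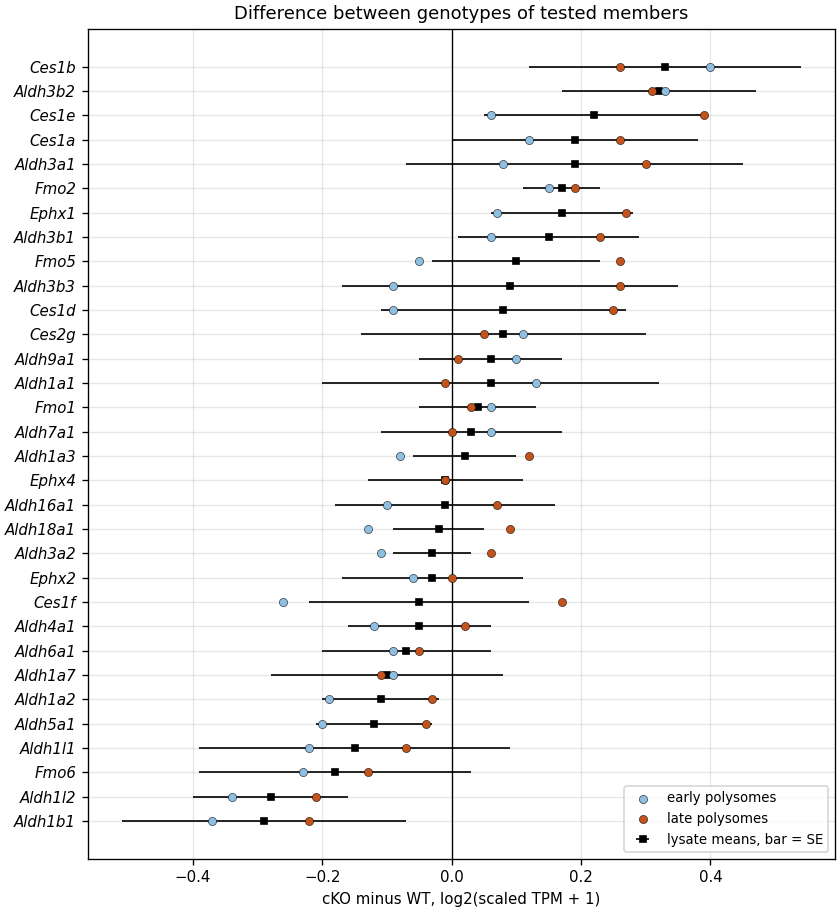
Difference between cKO and WT (horizontal axis, log2(scaled TPM + 1)) of 32 tested members. Black squares with bars give the difference of lysate means with its SE, pale blue points early polysomes and orange points late polysomes. The lysate-mean differences run from -0.29 to 0.33, and none passed the test.

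The interaction tests whether the late-minus-early difference itself differed between genotypes. It was called for 0 members and 0.00621% of all genes, with 0 members at an unadjusted limma p under 0.05 (2.85% of all genes) and 0 by voom. The median over the members was 0.14, with 23 of 33 values above 0, and a median SE of 0.30. Single values of the 32 members shown ran from -0.14 (Ces1b) to 0.43 (Ces1f). These values also turned on single libraries. Without cKO early replicate 2, 11 values were above 0 (median -0.07), and without WT early replicate 1, 18 were (median 0.03). Without cKO early replicate 1, 31 were (median 0.31), and without cKO late replicate 1, 20 were (median 0.08). No interaction was called in these fits. Without the WT early library with the conflicting tag, 31 values were above 0 (median 0.23), 0 were called, and 6 members rather than 14 had a value above 0 between genotypes in early polysomes.

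Related genes were counted from lists of the same pathways, beside 34.3% of all genes called higher and 34.6% called lower in late polysomes. Of 20 tested genes of alcohol and aldehyde metabolism, 13 were higher and 4 lower in late polysomes, with a median of 0.63. Aldh2, the mitochondrial acetaldehyde dehydrogenase of 519 codons, rose by 1.15 (SE 0.13). The alcohol dehydrogenases Adh1 (375 codons) and Adh5 (374 codons) rose by 1.11 (SE 0.13) and 1.15 (SE 0.07). Cbr2, a carbonyl reductase of 244 codons, fell by 0.51 on the log2 scale (SE 0.13).

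Of 18 tested genes of the retinoic acid pathway, 4 were higher and 9 lower in late polysomes (median -0.32), against 34.3% and 34.6% of all genes. The binding proteins of retinoic acid were on the opposite side from the Aldh1a enzymes: Crabp1 (137 codons) fell by 1.48 (SE 0.10) and Crabp2 (138 codons) by 0.97 (SE 0.09). Rdh11, a retinol dehydrogenase of 316 codons, rose by 1.02 (SE 0.11). The 9 lower genes were not all short: the receptor gene Rara, of 462 codons, fell by 0.56 (SE 0.07).

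Of 13 genes of microsomal electron supply, 7 were higher and 5 lower (median 0.33), against 34.3% and 34.6% of all genes. Por (678 codons), the reductase that feeds microsomal cytochromes P450, rose by 1.34 (SE 0.18), and the small electron carrier Cyb5a (134 codons) fell by 1.59 (SE 0.15). Of 12 tested partners in ester and epoxide metabolism, 6 were higher and 2 lower (median 0.40). No gene of these 4 lists passed the threshold between genotypes.

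The tissue label was compared with marker lists. Sustentacular, gland and mature neuron markers were present, apart from the sustentacular marker Fezf2, which reached at most 0.181 TPM. Cyp2g1, a cytochrome P450 of sustentacular cells, was at 697 to 3419 TPM. Omp, the mark of mature olfactory neurons, was at 2439 to 5393 TPM. Over all genes 34.3% were called higher and 34.6% lower in late polysomes. Of the 14 tested sustentacular markers, 12 were higher and 2 lower (median 1.00). Of the 13 gland markers, 8 were higher and 2 lower (median 0.74), and of the 10 mature neuron markers 7 were higher and 3 lower (median 0.56). The 4 liver genes, listed because liver is rich in these enzyme families, summed to 0.343 to 4.18 scaled TPM per library.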

How the data were processed

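The authors deposited 1 table of TPM (transcripts per 1000000, the sum of each library) with 1 column per library. The submitters' processing notes name FastQC, cutadapt, STAR, DESeq2 and the mm10 build, without roles or versions. The counter and annotation are not given in the sources used here. Libraries were scaled by median ratios, and limma 3.58.1 (R 4.3.3) was fitted to log2(scaled TPM + 1), with all 4 groups in 1 fit, a mean-variance trend and Benjamini-Hochberg adjustment over the 16097 genes with a mean TPM of at least 1. This scale understates changes of low genes. Genotype was also tested on the means of the early and late log2 values of each of the 4 lysates. The fits were also run on simulated data drawn with independent noise per library, without effects shared within a lysate. The outcome is not given here and lends no weight to the calls.

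Whole reads were inferred from the TPM steps (tolerance 0.001, 100% of the 19783 genes above 0 in at least 2 libraries), exact up to a common factor. They served a voom alternative and a filter, both chosen after seeing the data. The other alternatives were pseudocounts of 0.1 and 0.5, filters on TPM, other scalings, no trend, blocks, and leaving out libraries. Library names tie both fractions to 1 lysate, and their deviations from group means correlated across genes at 0.0862 (WT) and 0.0502 (cKO).

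Gene models came from GENCODE M21 (47 of 47 members matched). Coding length was used in place of the planned protein length. Every member could be named. Values per library were given for Aldh1a7, members with a mean scaled TPM of at least 50, members called between genotypes or in the interaction, and the 3 highest and 3 lowest late-minus-early differences among those with a mean of at least 5. The members and lists were chosen with earlier results of these data known. One tested member is counted but its own values are not reported here.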

Additional observations from a re-analysis of the deposited data

How the results depend on the processing

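Of the 33 members, 27 kept their direction and their side of the threshold in the average late-against-early comparison under every alternative run, up to 18 for each. Called members never reversed, and 2 lost the call in at least 1 alternative (Aldh1l1 and Aldh3b3, in the report). Ces1b and Ces2g passed the test under some alternatives, and Fmo2 reversed from -0.06 to 0.06 with TPM as deposited. That scaling moved the median of all genes to 0.087, and the genes called from 5519 higher and 5575 lower to 6258 and 4874. With genes of a mean TPM of at least 5, rho with coding length was 0.644 and the members' median between 450 and 650 codons rose from 0.85 to 1.09, because 22 rather than 28 members remained.

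Counts of genes called moved where few were called. Between genotypes in early polysomes, 7 became 11 without a filter, 4 at a mean TPM of at least 5, 0 with only the 4 libraries compared (1043 at an unadjusted limma p under 0.05), 12 with voom and 4 at a mean of at least 10 inferred reads. Leaving out 1 library gave 0 to 9, with 0 without WT early replicate 1, 2 without WT early replicate 2 or cKO early replicate 1, and 4 without cKO early replicate 2. In late polysomes, 2 became 1 with a pseudocount of 0.1, 4 without a filter, 1 at a mean TPM of at least 5, 5 without the trend, 1 with only the 4 libraries, 15 with voom and 1 at 10 inferred reads, and 0 to 13 when a library was left out (0 without either WT late library, 13 without cKO late replicate 1, 9 without cKO late replicate 2, 1 without either cKO early library). In lysate means, 1 became 0 without a filter (2115 unadjusted), 0 without the trend (1674), 58 with voom and 3 at 10 inferred reads, and 1 to 10 when a lysate was left out (10 without cKO lysate 1, 3 without cKO lysate 2). For the interaction, 1 became 6 without a filter, 0 at a mean TPM of at least 5 (326 unadjusted), 2 without the trend, 0 with voom (396) and 0 at 10 inferred reads (433), and 1 to 7 when a library was left out (7 without cKO late replicate 2, 4 without cKO late replicate 1, 3 without cKO early replicate 2). Late against early in WT called 8824 genes, and 5874 to 8968 when a library was left out, lowest without WT early replicate 2. The cause was not tested.

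With the lysate as a block, members called on average went from 29 to 31, and no called member lost its call. WT and cKO libraries share only a number, and their deviations correlated across genes at 0.331 (early) and 0.142 (late). With that replicate number as a block, lysate means called 82 genes and 0 members. Depth limits the lowest members: Ces1b had 3 to 16 inferred reads per library.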
